A study of Drosophila melanogaster with 2 samples.

Results

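The proteasome subunit genes of Drosophila melanogaster were examined in chromatin immunoprecipitation sequencing (ChIP-seq) data for Eyeless, a Pax6 transcription factor of eye and brain development. They were taken as the protein-coding genes whose symbol begins with Prosalpha or Prosbeta, or with Rpn or Rpt and a digit. This gave 48 of 13945 protein-coding genes, of which 32 carried the plain subunit symbol and 16 a suffix of R or T that marks a paralog. The chromatin came from whole larvae at the wandering stage of the third instar, both sexes pooled, of 1 transgenic line that stably carried ey fused at its C-terminal end to GFP (ey-eGFP). Immunoprecipitation used an antibody against GFP per the description of the samples, whereas their antibody field reads ey. The 2 libraries, biological replicates 1 and 3, form 1 group with no untagged or treated group beside it. A called region therefore does not by itself show that the fusion protein binds there. The sample is a mixture of all larval tissues. Chromatin of cells without Eyeless is diluted into the same sample, and strong occupancy in few cells cannot be told apart from weak occupancy in many.

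The proteasome is the chambered protease that degrades proteins tagged with ubiquitin. Its 20S core is a stack of rings built from alpha subunits, whose ends form the gate, and beta subunits, some of which carry the proteolytic sites. The 19S regulatory particle caps the core. In it the Rpt ATPases unfold and feed the substrate, and the Rpn non-ATPases scaffold the particle, bind ubiquitin and cut it off. The subunits are made in fixed proportions in nearly all cells, while many of the paralogs with a T suffix are known in the fly for expression in the testis.

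Each list of called regions gives a signal, the authors' own strength value with no stated scale, and the position of a summit. Ranks below count from the strongest region of the list in question, and signals of different lists were not compared. The optimal list held 6835 regions that passed the authors' irreproducible discovery rate procedure (IDR, a comparison of region ranks between replicates). Each member's optimal promoter region held the same rank in the pooled list, and some ranked far apart in the replicates. The pooled list held 30000 regions, with a lowest signal of 15.4, and the lists of replicates 1 and 3 held 30000 and 27637 regions. The pooled list is labelled as peaks and background, the input for IDR, so a weak region in it may be background. A gene was counted as having a promoter region when a summit lay within 500 bp of one of its own transcription start sites (TSSs). No read totals accompany the lists, so the depth behind them is unknown.

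The sequences under the summits are shown first for Rpn5, the member with the strongest promoter region, and for Rpn2, Rpn12 and Rpn11, whose summits sat beside a DNA replication-related element (DRE) or its core. The DRE, TATCGATA, is the binding site of DREF and is common in promoters of genes used by all cells. Prosalpha2 is shown as the single member whose summit was not poorer in GC than its flanks. The sequences are from the RefSeq copy of Release 6 (dm6), on the strand of the gene and centred on the optimal summit, cut where an annotated transcript's untranslated part begins. Capitals mark DRE letters (TATCGATA or its core ATCGAT) and, at Prosalpha2, CACACT, letters found within the core promoter element called Motif 1.
Rpn5 (3R:5789171-5789271, + strand): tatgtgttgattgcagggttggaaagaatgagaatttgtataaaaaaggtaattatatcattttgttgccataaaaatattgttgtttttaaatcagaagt
Rpn2 (3R:29153408-29153508, + strand): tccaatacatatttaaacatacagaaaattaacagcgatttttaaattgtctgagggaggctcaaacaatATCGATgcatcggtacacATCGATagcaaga
Rpn12 (3L:16582810-16582910, + strand): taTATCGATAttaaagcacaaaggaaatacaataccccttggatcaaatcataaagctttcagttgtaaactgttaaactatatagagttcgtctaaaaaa
Rpn11 (2L:5060094-5060194, − strand): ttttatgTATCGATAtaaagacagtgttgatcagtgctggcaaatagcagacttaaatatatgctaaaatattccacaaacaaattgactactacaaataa
Prosalpha2 (3R:12431091-12431175, + strand): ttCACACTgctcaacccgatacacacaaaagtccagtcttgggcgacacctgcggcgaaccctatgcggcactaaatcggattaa

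Optimal regions were found at promoters of the plain subunit genes and at none of the paralogs. Of the 48 members, 14 had an optimal promoter region (29.2%), against 23% of all protein-coding genes and also 23% of the 7991 genes in the members' length range of 881 to 4500 bp. These 14 were all plain subunit genes (14 of 32, 43.8%), and the paralogs had 0 of 16. Within the gene or 1 kb of it, 15 members (31.3%) had an optimal summit, against 34.1% of all genes, the addition being Prosbeta6. The pooled list holds weak regions and background too. In it 28 of the 32 plain genes (87.5%) and 1 of the 16 paralogs had a promoter region, against 49.6% of all genes. Once a pooled promoter region was present, the members reached the optimal list about as often as other genes (14 of 29, 48.3%, against 46.4%).

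The regulatory particle's non-ATPase subunits made up most of the count. They had 9 of 12 optimal promoter regions, namely 6 of 8 in the lid that holds the deubiquitinase and 3 of 4 outside it. The 20S alpha ring had 3 of 7, the beta ring 1 of 7 and the ATPases 1 of 6, together 5 of 20 (25%). In the pooled list these differences were smaller, with 12 of 12 non-ATPases, 5 of 7 alpha, 6 of 7 beta and 5 of 6 ATPase genes. With 1 group of libraries and these few genes, the difference between roles was not tested.

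**Figure D1:**
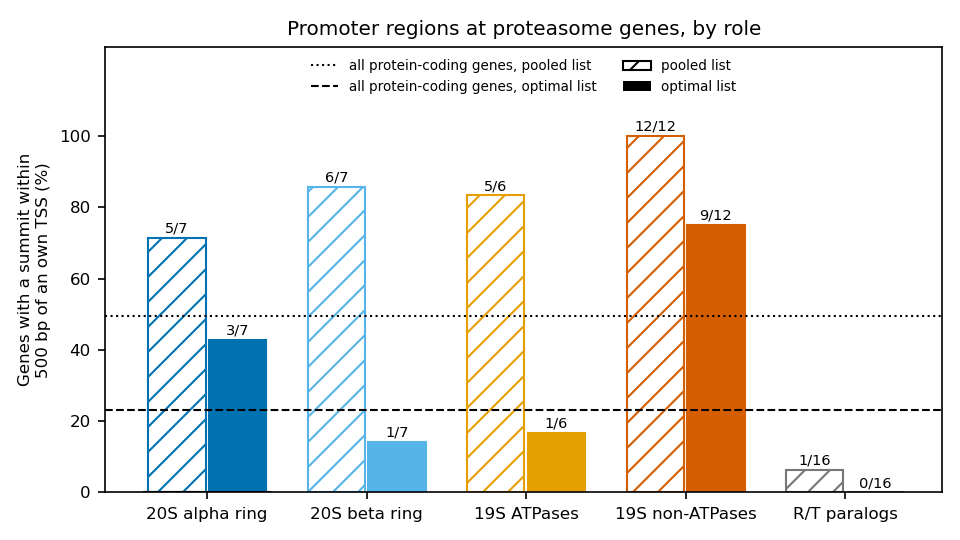
Share of genes (vertical axis, percent) with a summit within 500 bp of an own TSS, by role, in the pooled list (hatched) and the optimal list (filled), with the number of genes above each bar; the dotted and dashed lines are the shares of all protein-coding genes, 49.6% and 23%. The non-ATPases stand highest in both lists with 12 of 12 and 9 of 12, and the paralogs lowest with 1 of 16 and 0 of 16.

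The replicates differed in how many of these promoters ranked high. Among the 6835 highest-signal regions of each replicate, 13 members had a promoter region in replicate 1 (27.1%, against 23% of all genes) and 9 in replicate 3 (18.8%, against 23.2%). The 9 were in both, a share of 18.8% against 19.2% of all genes. Without replicate 1 the count of 14 thus fell to 9, through the loss of Prosalpha6, Prosalpha7, Rpn2, Rpn10 and Rpn11, and without replicate 3 it was 13, through the loss of Prosalpha6. The non-ATPases had 9 promoter regions in replicate 1 and 6 in replicate 3, the other plain subunits 4 and 3, and the paralogs 0 in each.

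Of the lid subunits, Rpn5, which forms part of the lid scaffold, had the strongest promoter region of all members. Its optimal region (3R, 5789020 to 5789360) had a signal of 416 and rank 770, with a signal of 197 and rank 949 in replicate 1 and 231 and rank 591 in replicate 3. The summit lay 272 bp upstream of the TSS and nearer to that of Hat1, the gene of a histone acetyltransferase on the opposite strand. Another region of the locus was far stronger, at rank 59, but its summit lay 2291 bp downstream of the TSS of Rpn5, within 500 bp of that of Hpf1.

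Rpn3 and Rpn6, further lid subunits, followed. At Rpn3 (2L, 19051746 to 19051925) the optimal signal was 273 and the rank 1466, with 146 and rank 1505 in replicate 1 and 135 and rank 1404 in replicate 3. Its summit was 22 bp downstream of the TSS and within 500 bp of that of l(2)37Bb. At Rpn6 (2R, 14752306 to 14752486) the signal was 211 and the rank 2149, with 108 and rank 2305 in replicate 1 and 110 and rank 1889 in replicate 3. These regions, like that of Rpn5, held similar places in both replicates. The Rpn6 summit lay 128 bp upstream of an internal TSS of the gene and closer to that of ave, which encodes the signalling adaptor Aveugle. With the gene's outer end as the only TSS, Rpn6 was not counted.

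Weaker regions marked Rpn12, Rpn8 and Rpn11. At Rpn12 (3L, 16582645 to 16583074) the optimal signal was 116 and the rank 4601, with 63.9 and rank 4533 in replicate 1 and 47.4 and rank 5382 in replicate 3. Rpn8, which pairs with Rpn11, ranked 6260 in the optimal list, 6516 in replicate 1 and 6120 in replicate 3. Rpn11, the deubiquitinase of the lid, ranked 6283, 4507 and 7278 in the same order. The Rpn11 summit was the farthest from its TSS among the 14, 354 bp upstream, and Rpn8 was reached at an internal TSS shared with the promoter of Slik, a kinase gene, so that it dropped out, like Rpn6, when the gene's outer end alone counted as TSS.

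The lid genes Rpn7 and Rpn9 had no optimal region. At Rpn7 the pooled signal was 58.1 and the rank 9241, with 33.4 and rank 9360 in replicate 1 and 19.6 and rank 12793 in replicate 3. At Rpn9 it was 46.0 with rank 11499, and 37.6 with rank 8262 in replicate 1, while the list of replicate 3 held no promoter region there. Both thus lay among the weak regions below the optimal list, which ends at pooled rank 6835.

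Among the non-ATPases outside the lid, Rpn13, a ubiquitin receptor, had the strongest region (2R, 13960257 to 13960686). Its optimal signal was 183 and its rank 2643, with 93.3 and rank 2808 in replicate 1 and 92.1 and rank 2440 in replicate 3. The summit lay 68 bp upstream of an own TSS, in a region shared with CtsL1, the gene of a cathepsin. Rpn2, the large scaffold subunit that holds Rpn13, had a region (3R, 29153243 to 29153672) with an optimal signal of 117 and rank 4554, with 86.6 and rank 3112 in replicate 1 but 32.4 and rank 7839 in replicate 3. It shares this promoter with Slbp, which encodes the histone mRNA stem-loop binding protein. A stronger optimal region within 1 kb of Rpn2 (signal 372, rank 918) lay 4339 bp downstream of its TSS, within 500 bp of that of rdog.

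The ubiquitin receptor gene Rpn10 stood just inside the optimal list. Its promoter region had a signal of 80.7 and rank 6709, with rank 5467 in replicate 1 and 12481 in replicate 3. A stronger optimal region within 1 kb of the gene (rank 3574) lay at the TSSs of COX8 and VhaM9.7-b. Rpn1, the scaffold on which ubiquitin shuttle factors dock, had a pooled region only, with a signal of 43.8 and rank 11984, 22.8 and rank 13629 in replicate 1, and 20.03 and rank 12454 in replicate 3.

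The ATPase genes had weak promoter regions apart from Rpt5. At Rpt5 (3R, 23752613 to 23753042) the optimal signal was 139 and the rank 3733, with 103 and rank 2445 in replicate 1 and 37.9 and rank 6644 in replicate 3, so it ranked higher in replicate 1. Its summit lay 48 bp upstream of the TSS, nearer to that of RanBP3, the gene of a Ran-binding protein. Rpt2 fell just outside the optimal list. Its pooled signal was 78.1 and its rank 6943, with 44.8 and rank 6902 in replicate 1 and 22.7 and rank 10998 in replicate 3.

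The other ATPase genes were lower still. Rpt3 had a pooled signal of 36.1 and rank 14282, with 24.9 and rank 12559 in replicate 1 and 17.9 and rank 14161 in replicate 3. For Rpt4 the values were 29.9 and rank 16984, 17.7 and rank 17117, and 13.3 and rank 20603, in the same order. Rpt6 was called in the pool (18.6, rank 25695) and in replicate 1 (13.2, rank 21771) but not in replicate 3, and Rpt1 in replicate 3 alone (22.04, rank 11317). The ring that these genes encode contains all of them in equal number, whereas their promoter regions ran from rank 3733 in the pooled list to none.

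In the alpha ring 3 genes had optimal promoter regions, all of them weak. Prosalpha2 (3R, 12430926 to 12431355) had an optimal signal of 109 and rank 4894, with 55.9 and rank 5302 in replicate 1 and 45.6 and rank 5597 in replicate 3. Prosalpha7 (2R, 9847656 to 9848085) had 101 and rank 5311, with 67.9 and rank 4246 in replicate 1 but 25.1 and rank 9952 in replicate 3. Prosalpha6 had an optimal signal of 96.8 and rank 5574. In replicate 1 its promoter region had 31.9 and rank 9850, and the list of replicate 3 held none, so this gene entered the optimal list without a promoter summit among the 6835 strongest regions of either replicate. Its summit lay nearer to the TSS of Npc1a, a sterol transporter gene, than to its own.

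The remaining alpha genes were weak or not called. Prosalpha3 had a pooled signal of 68.6 and rank 7895, with 35.1 and rank 8905 in replicate 1 and 33.4 and rank 7578 in replicate 3. Prosalpha5 had 52.5 and rank 10158, with 29.6 and rank 10580 in replicate 1 and 20.6 and rank 12127 in replicate 3. Prosalpha4 was called in replicate 1 alone (9.66, rank 27332) and Prosalpha1 in no list.

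Of the beta ring, Prosbeta1, which carries the caspase-like site, alone had an optimal promoter region (2R, 16014660 to 16015089). Its signal was 102 and its rank 5268, with 49.1 and rank 6192 in replicate 1 and 50.1 and rank 5067 in replicate 3. The region is shared with Rrp42, the gene of an exosome subunit, whose TSS was the nearer. The genes of the other catalytic subunits were near the bottom of the pooled list, in the middle of that of replicate 1 and absent from that of replicate 3. Prosbeta2, of the trypsin-like site, had a pooled signal of 17.9 and rank 26461 and 18.4 with rank 16437 in replicate 1. Prosbeta5, of the chymotrypsin-like site, had 17.9 and rank 26451, and 21.4 with rank 14460 in replicate 1.

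The structural beta genes varied as well. At Prosbeta3 the pooled signal was 52.3 and the rank 10196, with 39.3 and rank 7875 in replicate 1 and 21.8 and rank 11462 in replicate 3. Prosbeta4 (29.7, rank 17097) and Prosbeta7 (16.7, rank 28078) were called in the pool and in replicate 1, there with 24.5 at rank 12744 and 13.6 at rank 21200, and not in replicate 3. Prosbeta6 had no promoter region in any list. Its optimal region (rank 2158) lay 1102 bp downstream of its TSS and within 500 bp of the TSS of CG4098.

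**Figure D2:**
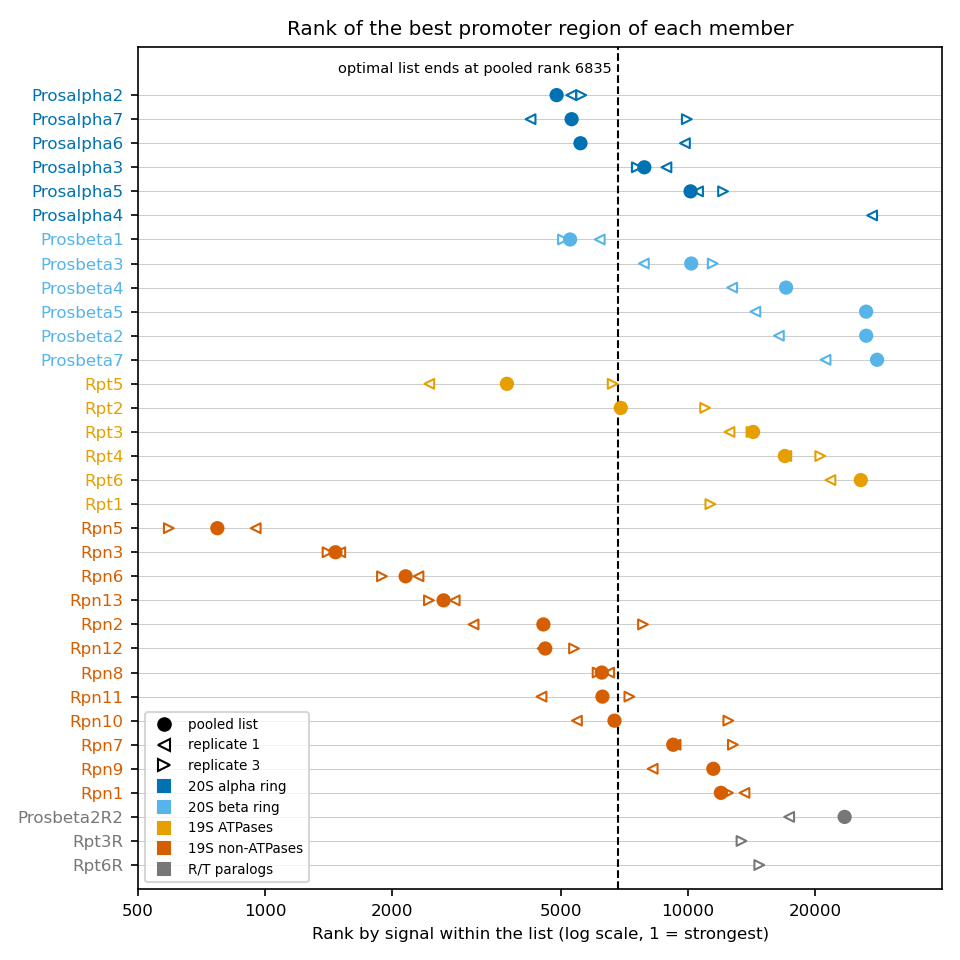
Rank of the best promoter region of each member within the pooled list (filled circles), replicate 1 (left-pointing) and replicate 3 (right-pointing triangles), on a log axis where 1 is the strongest; members with no promoter region in any list are not drawn, colours give the role, and the dashed line is the end of the optimal list at pooled rank 6835. The lists hold 30000, 30000 and 27637 regions, so ranks show order within a list; Rpn5, Rpn3, Rpn6 and Rpn13 lie farthest to the left in the pooled list and in replicate 3.

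The 16 paralogs were nearly bare of regions. Of these, 13 had no promoter region in any list: Prosalpha1R, Prosalpha3T, Prosalpha4T1, Prosalpha4T2, Prosalpha6T, Prosbeta2R1, Prosbeta4R1, Prosbeta4R2, Prosbeta5R1, Prosbeta5R2, Rpn12R, Rpn13R and Rpt4R. Prosbeta2R2 had a pooled region at rank 23526, called in replicate 1 (rank 17385) and not in replicate 3, at a promoter it shares with CG1116. Rpt3R (rank 13409) and Rpt6R (rank 14775) were called in replicate 3 alone. No paralog therefore had a promoter region in both replicates.

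Across the 14 promoters the regions were of middling to low strength. Their median optimal signal was 113 (80.7 to 416) and their median rank 4748, against 168 and 2933 for the 3210 genes with an optimal promoter region. In the upper part of the optimal list, its 3417 strongest regions, 4 of the 48 members had a promoter region (Rpn5, Rpn3, Rpn6 and Rpn13), against 13.2% of all genes. Counted among genes with an optimal promoter region, this was 4 of 14 members (28.6%), against 57.3% of the 3210 genes. The 683 strongest regions held promoters of 0 of the 14 members and of 443 of the 3210 genes (13.8%). With so few members these differences were not tested. Across the 21 members with a promoter region in both replicate lists, Spearman's rho of the signals was 0.81, a description over genes of 1 pair of libraries. It leaves out 9 members called in replicate 1 alone and 3 called in replicate 3 alone.

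Summits lay just upstream of the start of transcription. The median position was 108 bp upstream of the own TSS (from 354 bp upstream to 22 bp downstream), and 12 of 14 summits were upstream. In absolute terms the median distance was 108 bp, and it was 66 bp without replicate 3 and 128 bp without replicate 1. Over all genes with an optimal promoter region the median was 130 bp upstream and 86.5% of summits were upstream. Of the 14 members, 13 had a promoter summit in both whole replicate lists. At these 13 the summits of the replicates lay a median of 25 bp apart (5 to 107 bp), and within 50 bp at 10 of them. Rpn6 and Prosalpha7 had the smallest shift among the 13, 5 bp, and Rpn11 the largest. Across all 21 members with a promoter summit in both lists the median shift was 49 bp, and 12 lay within 50 bp.

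**Figure D3:**
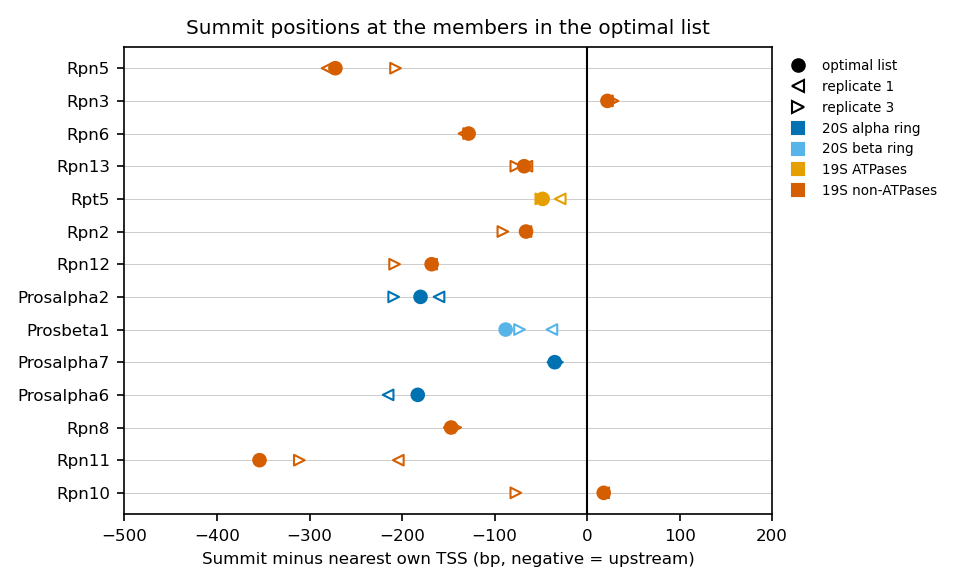
Position of the summit relative to the nearest own TSS (horizontal axis, bp, negative upstream) at the 14 members with an optimal promoter region, ordered by rank; circles are the optimal list and triangles the replicates. In the optimal list 12 of 14 summits lie upstream of the TSS and the 2 others, at Rpn3 and Rpn10, within 22 bp downstream.

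Many of these promoters face another gene. Of the 32 plain subunit genes, 21 (65.6%) had a divergent protein-coding gene whose TSS lay within 500 bp upstream, against 27.4% of all protein-coding genes and 3 of 16 paralogs. Of the 21 genes, 10 (47.6%) had an optimal promoter region, and of all genes with such a partner 45.03% did. Of the 11 without a partner, 4 (36.4%) had one, namely Prosalpha2, Rpn10, Rpn11 and Rpn12, against 14.7% of all genes without. In 5 of the 14 regions the partner's TSS was nearer to the summit than the member's own. The part of shared promoters in the counts was not tested, and position alone does not assign a region to either gene.

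Member summits sat in AT-rich DNA. Within 50 bp of the 14 summits GC content was 35.0% ± 8.11 (SD over 14 summits). In flanking windows of equal length, 300 bp away, GC content was 46.5% ± 5.67. The difference was −11.5 percentage points ± 6.79, and GC was lower at the summit than beside it in 13 of 14. At the 2673 optimal summits near any protein-coding TSS the difference was −8.33 ± 12.9, and GC was lower at the summit in 73.3%. The deepest dips were at Rpn12 (−23.8) and Rpn8 (−22.3), and Prosalpha2 (0.99) was the exception.

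**Figure D4:**
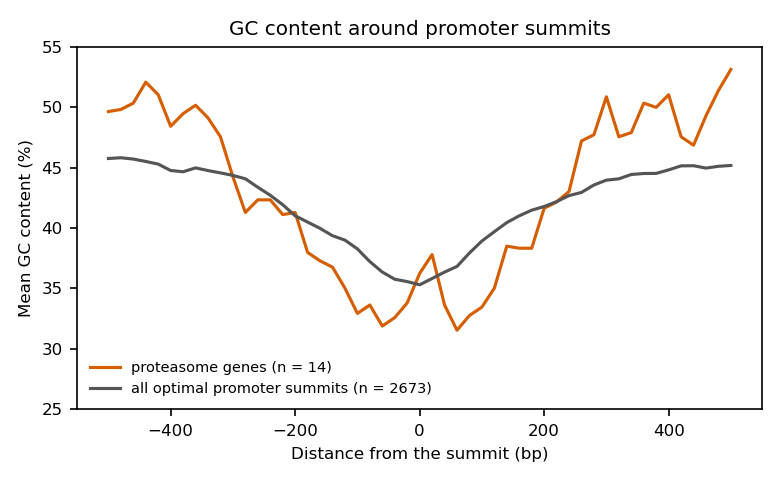
Mean GC content (vertical axis, percent, windows of 41 bp) against distance from the optimal summit (horizontal axis, bp) for the 14 proteasome gene promoters and for all 2673 optimal promoter summits. Both lines are lower near the summit than in the flanks. The line of all summits is lowest at the summit (35.3%). That of the members is lowest 60 bp to either side (31.9% and 31.5%) and stands at 36.2% at the summit. GC within 50 bp of the summit averages 35.0% for the members and 35.7% for all summits.

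The DRE was frequent in the plain subunit promoters, whether or not they had an optimal region. In the window from 250 bp before to 50 bp after the gene start, read on both strands, TATCGATA was found in 12 of 32 plain genes (37.5%), 0 of 16 paralogs and 9.36% of all protein-coding genes. By role it was found in 3 of 7 alpha, 3 of 7 beta, 1 of 6 ATPase and 5 of 12 non-ATPase genes. The core ATCGAT, which the DRE contains, was in 17 of 32 plain genes, 1 paralog and 23.3% of all genes. Optimal promoter regions were found at 6 of the 12 genes with a DRE and 8 of the 20 without, and over all protein-coding genes at 34.9% with and 21.8% without. The window was read at the gene start alone, whereas regions were counted at any own TSS. Rpn6 and Rpn8, counted as without a DRE, had their regions at internal TSSs outside that window. The core ATCGAT, but not the full DRE, lay within 50 bp of the Rpn8 summit.

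Within 50 bp of the summit the DRE was found at 4 of 14 member promoters (28.6%) and at 3.67% of all 2673 optimal promoter summits. The sites lay 6 bp from the summit at Rpt5, 30 bp at Prosbeta1, 40 bp at Rpn11 and 44 bp at Rpn12. At the promoter summits of the replicates' own top-ranked lists the count was 2 of 13 in replicate 1 and 3 of 9 in replicate 3. The DREs of Prosalpha6, Rpn13 and Rpn3 were farther from the summit, at 171, 146 and 215 bp.

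**Figure D5:**
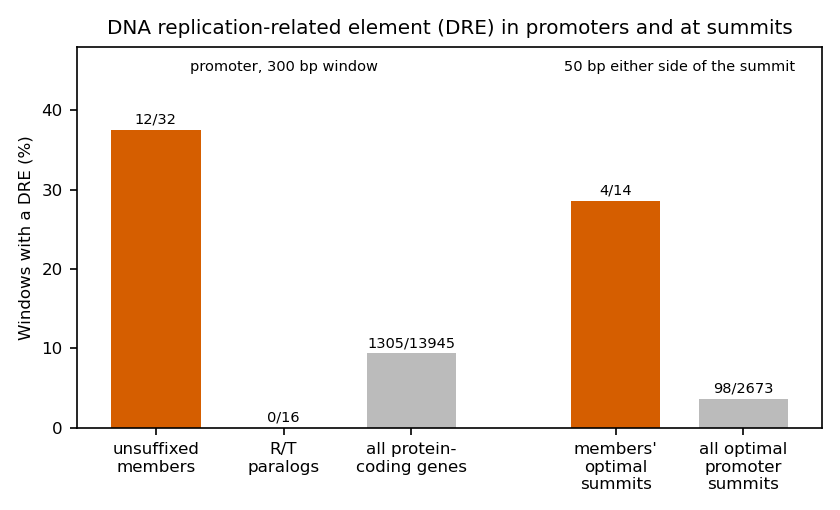
Share of windows (vertical axis, percent) that hold TATCGATA on either strand, with counts above the bars: at left the promoter window (250 bp before to 50 bp after the gene start) of plain subunit genes, paralogs and all protein-coding genes, at right 50 bp to either side of optimal promoter summits. The bars read 12 of 32, 0 of 16 and 1305 of 13945 genes, then 4 of 14 and 98 of 2673 summits.

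A DRE was also present at plain subunit genes with weak regions or none, and its surroundings are shown to set beside the summits above. They are taken from the same RefSeq sequence and strand, with the DRE in capitals. Prosalpha6 has an optimal region whose summit is elsewhere, Prosbeta2 a region near the bottom of the pooled list, and Prosbeta6 no promoter region in any list.
Prosalpha6 (2L:10221319-10221350, + strand): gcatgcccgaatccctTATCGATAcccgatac
Prosbeta2 (3L:14999925-14999950, + strand): tgagtccatgaatataTATCGATAca
Prosbeta6 (3L:16610439-16610478, − strand): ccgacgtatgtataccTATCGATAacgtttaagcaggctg

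Other promoter motifs were searched in the same window and on both strands. Motif 1, with 1 mismatch allowed, was found at 8 of 32 plain genes (12.1% of all genes). Of these 8, 1 had an optimal promoter region, as had 552 of all 1692 protein-coding genes with Motif 1. The difference was not tested. The letters CACACT of Motif 1 were found at 7 of 32 (20.8% of all). GAGAG, bound by GAGA factor, was found at 3 of 32 (29.7% of all genes) and at 6 of 16 paralogs. The E-box CACGTG was in 0 of 32 (4.20% of all) and the E-box CAGCTG in 1 (17.7% of all). The antioxidant response element, TGACNNNGC, through which Cnc acts with its small Maf partner, was in 5 of 32 (8.63% of all). The GATA factor site AGATAA was in 8 of 32 (18.7% of all). Within 50 bp of the 14 summits, neither the antioxidant response element, the GATA site, the E-boxes nor Motif 1 was found, and over all 2673 optimal promoter summits these were found at 1.08% to 7.07%. A match describes letters in a window and does not show that a factor binds there.

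Genes that build, feed or control the proteasome were called at their promoters too. They were examined together with genes of the COP9 signalosome, a separate complex. Of 33 genes matched by symbol, 8 of them of the COP9 signalosome, 15 had an optimal promoter region, against 23% of all protein-coding genes. Among factors of assembly and activity the count was 5 of 8. These included ntc, the F-box gene nutcracker (rank 1669, shared with IntS10 and CG32264), and Uch-L5, a deubiquitinase that docks on Rpn13 (rank 3618, shared with Jarid2). The others were Pomp, the maturation factor of the core (rank 3825), CG8858 (rank 5895) and PI31, a proteasome-binding regulator (rank 6438). REG, the gene of a core activator, the small lid subunit gene Sem1, which the symbol rule does not cover, and Usp14, of a deubiquitinase, had pooled but no optimal regions at their promoters (ranks 27083, 9043 and 14301).

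Of the ubiquitin and shuttle genes 3 of 8 had an optimal promoter region, against 23% of all genes. They were the polyubiquitin gene Ubi-p63E (rank 3451), RpS27A, a ubiquitin fusion gene (rank 4351, shared with Ip259), and Uba1, the E1 enzyme gene (rank 6569). In the list of the p97 unfoldase the count was 2 of 4. The cofactor genes Plap (rank 2243, shared with CG31922) and p47 (rank 5741) were called, but not TER94, the p97 gene itself (pooled rank 9614). The difference of these short lists from that share was not tested.

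The strongest region of these lists was at cnc, the fly counterpart of the Nrf factors that induce proteasome genes. Its promoter region (3R, 23189931 to 23190241) had an optimal signal of 478 and rank 603, with rank 647 in replicate 1 and 565 in replicate 3, above the promoter region of every subunit gene. The gene spans 41132 bp, against 881 to 4500 bp for the members, and the summit lay 331 bp from an own TSS. Its partners and regulators Keap1 (rank 2694, shared with kuk), Pngl (rank 4786) and maf-S (rank 5395, shared with rig) also had optimal promoter regions. The E3 ligase gene sip3 had a pooled one (rank 6976), so 4 of 5 in that list were called, against 23% of all genes. In the COP9 signalosome, the complex built like the lid, 1 of 8 genes had an optimal promoter region (CSN3, rank 3376, shared with CG11456). CSN5, the counterpart of Rpn11, ranked 15433 in the pool and 2452 in replicate 3, with no promoter region in replicate 1.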

How the data were processed

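ChIP-seq regions of 2 biological replicates (1 group) were used as deposited in dm6; the dm3 lists and the control were not analysed here. Per the deposited file listing, regions were called on each replicate and on the pool against a control, and the optimal list is the IDR-thresholded one. Neither aligner nor caller nor IDR threshold is given in the sources used here. The deposited signal of each region is the authors' strength value, of unstated scale, used to rank regions within a list. The deposited −log10 q-value is at its ceiling in 100% of optimal regions, so it could not rank them. It is at the ceiling in 26.9% of pooled regions, 36.9% of those of replicate 1 and 21.2% of those of replicate 3. No q-value cutoff was applied to these lists. Some weak regions named above were far below the ceiling, such as Prosbeta7 in the pool (0.216) and Rpt4 in replicate 3 (0.174). Summits come from the deposited offsets.

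Gene models were Ensembl release 115 (BDGP 6.54) and the sequence was the RefSeq copy of Release 6; no region ran past a chromosome arm. Python 3.11.15, numpy 2.4.6 and pandas 2.3.3 were used, and the gene assignment was tested on simulated summits. Members were counted beside all protein-coding genes. No statistical test was made, since there is 1 group and genes are not replicates. The labels call the replicates biological and say nothing of separate cultures. All members are named, with full values for the 10 strongest optimal promoter regions and for plain subunit genes without one. The members and lists were chosen with earlier results of these data known. Alternatives changed the region list, the windows, the TSSs, the overlap and the replicate. Of 37 pathway symbols, 33 matched the gene names.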

Additional observations from a re-analysis of the deposited data

How the results depend on the processing

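Of 39 recomputed values 30 stayed within 1.5 times the count or, for the median distance and the GC difference, within the SD of the single-replicate values themselves. The 30 include paralog counts of 0 against 0 and plain subunit counts that repeat those of all members, so they are not separate checks. Only the GC difference could have changed sign, and it stayed negative. The count of members with an optimal summit in the gene or within 1 kb, 15, became 6 with the 3417 strongest optimal regions, 28 with a window of 5 kb and 4 inside the gene alone, and with a single replicate it was 12 to 14. Taking the gene's outer end as the TSS does not alter this count by construction and was not run for it. The 14 members with an optimal promoter region, all plain subunit genes, became 4 with the 3417 strongest regions and 9 to 13 with a single replicate, 13 within 250 bp, 14 within 1 kb and 12 with the gene's outer end as the TSS. The paralogs stayed at 0 in each. The pooled count of 29 was 24 to 30 with a single replicate. The median distance from the TSS, 108 bp, was 66 to 128 bp, the GC difference −13.8 to −11.2 percentage points, and the count of summits with a DRE, 4, was 2 to 3 with a single replicate. The cause of these shifts was not tested. No paired analysis was possible because the 2 libraries form 1 group. The depth of the libraries is unknown, so a gene without a region cannot be told apart from one below what the lists record.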

Other observations

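The plain subunit genes with an optimal promoter region were spread over the autosomal arms. They numbered 3 of 4 on 2L, 5 of 10 on 2R, 2 of 5 on 3L and 4 of 9 on 3R, while the 4 on the X chromosome (Prosalpha4, Rpt3, Rpt4 and Rpt6) had 0. Of all protein-coding genes on the X chromosome 22.4% had an optimal promoter region, and between 22.1% and 24.8% did on the autosomal arms. The grouping by arm was chosen with the results known, it rests on few genes, and the difference was not tested.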
